A study of Mus musculus and Homo sapiens with 9 samples.

Results

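R-loops are structures in which a nascent RNA pairs with the DNA strand it was copied from and leaves the other DNA strand single. They are known to form behind RNA polymerase II near the start of many active genes, most often at CpG islands, which are promoter sequences rich in the dinucleotide CpG. The antibody S9.6 binds RNA-DNA hybrids, and in CUT&Tag it guides a transposase that cuts and tags the DNA around each bound site. RNase H1 is the enzyme that digests the RNA of such hybrids, and S9.6 can also bind double-stranded RNA.

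The genes described here had an S9.6 peak at their promoter in mouse embryonic fibroblasts (MEF), in human HEK293 cells, or in both. A gene was counted when the midpoint of a peak lay within 1 kb of an annotated start site (TSS) of one of its protein-coding transcripts. Mouse genes were taken from the Mcm8 wild-type MEF list (WT) and human genes from the S9.6 list of wild-type HEK293 cells, and the species were joined by identical gene symbols without regard to case. Of 15738 protein-coding symbols present in both annotations, 2124 had a mouse R-loop promoter and 4800 a human one. In all, 5670 genes had at least one: 1254 in both species, 870 in mouse only and 3546 in human only, and 10068 had neither. A further 173 mouse and 666 human R-loop promoter genes had no symbol in the other annotation and were left out of the comparison.

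The series holds 9 libraries, 5 of MEF and 4 of HEK293, and each group is 1 library, so no difference has a replicate check. The MEF were prepared from embryonic day 13.5 trunks and immortalised with SV40. WT and KO were Mcm8+/+ and Mcm8-/- cells stained with S9.6, shControl and shDdx5 were MEF S9.6 libraries with a control or a Ddx5 short hairpin, and the last MEF library had no primary antibody. The HEK293 cells, a line derived from human embryonic kidney, were stained with S9.6, with S9.6 after transfection of an RNH1 plasmid (RNH1 stands for RNase H1 here), with anti-FLAG after transfection of a FLAG-MCM8 plasmid, or with mouse IgG. The intervals given are 95% Wilson intervals for shares and Newcombe intervals for differences. They cover counting error over genes only, not the spread between cultures, and genes are not replicates of a condition.

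The lists were called at different thresholds. The weakest WT peak had a −log10 p of 3.01 and the weakest HEK293 S9.6 peak one of 5.00. WT held 6481 peaks, of which 45.0% reached a p of 1e-05 or lower, and HEK293 S9.6 held 15147 on the nuclear chromosomes. Promoters held 31.6% of the WT peaks and 33.0% of the HEK293 peaks. A gene without a peak may therefore lie just under its list's threshold, and the classes describe calls and not the absence of R-loops. The read depth behind the peaks is unknown, because the files give no read counts.

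The CpG content of the promoters ran through most of the comparisons below, so 100 bases immediately upstream of the principal TSS are shown for 3 of the strongest genes in both species and for the strongest mouse-only and human-only genes whose windows touched no annotated exon. Each sequence reads 5′ to 3′ on the coding strand, from RefSeq assemblies of mm10 or hg38, and capitals mark each CpG.
Ap2a1, mouse, chr7:44929497-44929596, minus strand: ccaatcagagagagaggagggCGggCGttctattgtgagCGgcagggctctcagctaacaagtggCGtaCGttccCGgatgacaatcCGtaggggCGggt
AP2A1, human, chr19:49766901-49767000, plus strand: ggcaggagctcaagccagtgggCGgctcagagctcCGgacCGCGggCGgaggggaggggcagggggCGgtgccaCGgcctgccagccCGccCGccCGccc
Hdgfl2, mouse, chr17:56079534-56079633, plus strand: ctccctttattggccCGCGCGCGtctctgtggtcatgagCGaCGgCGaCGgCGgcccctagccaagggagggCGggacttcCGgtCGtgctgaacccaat
HDGFL2, human, chr19:4472197-4472296, plus strand: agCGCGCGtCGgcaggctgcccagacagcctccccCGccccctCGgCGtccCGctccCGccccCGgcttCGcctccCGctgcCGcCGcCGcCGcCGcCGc
Rab5b, mouse, chr10:128696265-128696364, minus strand: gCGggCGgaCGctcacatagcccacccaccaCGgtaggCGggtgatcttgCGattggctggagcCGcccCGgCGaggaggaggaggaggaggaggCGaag
RAB5B, human, chr12:55973813-55973912, plus strand: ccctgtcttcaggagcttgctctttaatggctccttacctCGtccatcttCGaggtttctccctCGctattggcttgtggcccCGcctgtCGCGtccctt
Aph1b, mouse, chr9:66795491-66795590, minus strand: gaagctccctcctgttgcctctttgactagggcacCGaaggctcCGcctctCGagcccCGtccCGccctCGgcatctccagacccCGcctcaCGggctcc
APH1B, human, chr15:63277505-63277604, plus strand: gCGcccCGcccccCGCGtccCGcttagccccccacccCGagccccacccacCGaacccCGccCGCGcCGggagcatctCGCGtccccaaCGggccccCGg
Tmem52, mouse, chr4:155469014-155469113, plus strand: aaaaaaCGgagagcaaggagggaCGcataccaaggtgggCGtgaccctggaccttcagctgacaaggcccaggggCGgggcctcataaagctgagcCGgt
TMEM52, human, chr1:1919280-1919379, minus strand: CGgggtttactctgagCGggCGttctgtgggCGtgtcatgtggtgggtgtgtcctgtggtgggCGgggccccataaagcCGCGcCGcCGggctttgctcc

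These windows held 8 and 10 CpGs at Ap2a1 (mouse and human), 12 and 18 at Hdgfl2, 10 and 6 at Rab5b, 8 and 15 at Aph1b, and 5 and 9 at Tmem52. Aph1b had a peak in mouse only although its human window held more CpGs than its mouse window. Tmem52 had a peak in human only, and its mouse promoter was the one of the 10 with the lowest ratio of observed to expected CpG over 1 kb, 0.358 against 0.742 in human. Over 500 bp around the TSS the mouse and human sequences were 69.8% identical at Ap2a1, 60.6% at Hdgfl2, 56.8% at Rab5b, 53.8% at Aph1b and 62.4% at Tmem52.

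Mouse R-loop promoter genes had a human promoter peak more often than the average matched gene. In HEK293 S9.6, 30.5% of all 15738 genes had a promoter peak, against 59.0% of the 2124 mouse R-loop promoter genes (56.9 to 61.1), 1.94 times the background. In the other direction, 26.1% of the 4800 human R-loop promoter genes (24.9 to 27.4) had a WT peak, against 13.5% of all genes. The lists without S9.6 also overlapped above the background: 44.4% of the 171 no-antibody genes (37.2 to 51.9) had a HEK293 S9.6 peak, a ratio of 1.46, and 8.77% (5.39 to 14.0), or 15 genes, an IgG peak, a ratio of 2.24. The shares of the mouse and human R-loop genes differ because the human list names more genes. With a p of 1e-05 or lower asked of both lists, the mouse list fell to 1445 genes and 64.9% of them had a human peak, while 19.5% of the human genes had a mouse peak. The latter share was 13.9% with a fold of at least 4 asked of both lists and 48.7% with shDdx5 in place of WT. With the 2124 strongest genes of each species, 697 were shared, which is 32.8% of each list and 2.43 times the background.

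The share of genes with a peak in the other species was highest among the strongest peaks. Ranked by the −log10 q of their peak, the strongest 25% of the mouse genes had a human peak in 72.5% of cases (68.6 to 76.1), and the following sets of 25% in 62.7%, 55% and 46.0% (41.8 to 50.2 for the last). The same sets of human genes, from the strongest, had a WT peak in 38.2%, 26.2%, 21.1% and 19.0%. In the weakest 10% of the mouse genes 42.9% (36.4 to 49.7) still had a human peak, above the background. Within the 1254 genes in both, the order of peak strength was only weakly shared (Spearman correlation 0.196 over 1254 genes, a description, since both ranks also carry promoter sequence and the number of start sites of each gene).

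**Figure D1:**
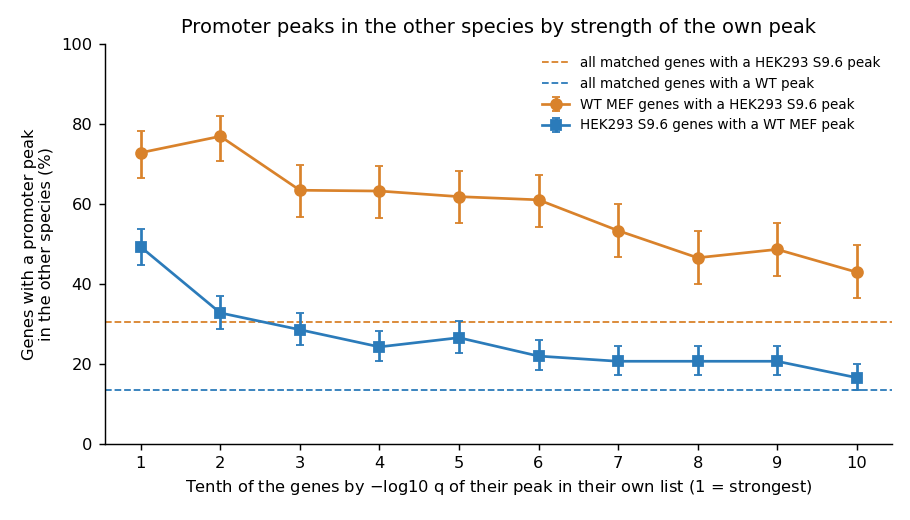
Share of R-loop promoter genes with a promoter peak in the other species (%, vertical axis) in 10 sets of equal size by peak strength in their own list (horizontal axis, 1 = strongest). Circles are WT MEF genes and squares HEK293 S9.6 genes, bars are 95% Wilson intervals, and dashed lines give the share over all matched genes, 30.5% for HEK293 S9.6 and 13.5% for WT. The mouse curve went from 72.8% in the strongest set to 42.9% in the weakest, and the human curve from 49.2% to 16.5%.

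Genes in both species had the stronger peaks of each list. The median percentile of their peak within the WT list was 78.1, against 61.8 for mouse-only genes, and within the HEK293 list 81.5, against 70.4 for human-only genes. The median fold enrichment was 3.96 against 3.65 in WT and 5.14 against 4.83 in HEK293. Of the WT peaks at genes in both, 25.2% had a p above 1e-05, the limit of the human list, and of those at mouse-only genes 41.7%. Peaks at genes in both were also wider, with medians of 399 against 360 bp in WT and 497 against 409 bp in HEK293.

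AP2A1, a large subunit of the AP-2 adaptor that selects cargo for clathrin-coated vesicles, had the lowest sum of ranks over the species. Its peak was number 36 in WT, at chr7:44929491-44930006 (mm10), with a fold of 6.63, and number 48 in HEK293 S9.6, at chr19:49766392-49766940 (hg38), with a fold of 8.01. It had a fold of 6.32 in KO, 3.96 in shControl, 6.81 in shDdx5, 7.14 in the list labelled RNH1 and 6.13 in FLAG-MCM8, and no promoter peak in the no-antibody or IgG list. Its promoter was therefore in all 7 lists made with an antibody against hybrids or FLAG and in neither control list.

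HDGFL2, a chromatin-binding protein of the HDGF family, followed, with a fold of 5.12 in WT at chr17:56078970-56079601 and of 9.75 in HEK293 S9.6 at chr19:4471686-4472116. GSK3B, a kinase of the Wnt and insulin pathways, had a fold of 6.50 in WT and 9.17 in HEK293 S9.6. The histone demethylase gene KDM4A had 6.98 and 8.92. All 3 had a peak in every S9.6 list of both species and in FLAG-MCM8, and none in the control lists.

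Vesicle traffic was represented by RAB1A, which works between the endoplasmic reticulum and Golgi, with folds of 6.20 in WT and 9.48 in HEK293 S9.6, and by RAB5B, a GTPase of early endosomes, with 5.32 and 6.82. PARK7, which encodes the redox-sensitive protein DJ-1, had 5.67 and 9.63, but no peak in KO, shControl or shDdx5. The homeobox gene PKNOX1 had 5.65 and 9.24 and a fold of 4.74 in IgG. Thus among the strongest genes most were present in the further S9.6 lists, with PARK7 as an exception in MEF, and a signal in a control list occurred at a few of them.

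Divergent genes that share a promoter were common among the genes in both. CDCA2 and KCTD9 had the same peak in each species, with a fold of 6.54 in WT and 9.04 in HEK293 S9.6. So did MYO9A and SENP8, with 5.79 and 8.35, and this promoter also had an IgG peak with a fold of 4.78. In WT, 30.0% of the genes in both (27.5 to 32.6) shared their peak with another gene, against 19.3% of mouse-only genes (16.8 to 22.1). In HEK293 S9.6 the shares were 33.7% against 24.8% of human-only genes. At 153 gene pairs the 2 neighbours shared a peak in mouse and again in human.

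Where the annotation gave a divergent pair in both species, the overlap was higher, and so was the share of all genes with a human peak. Of the mouse R-loop promoter genes at such promoters, 71.1% (66.4 to 75.5) had a human peak, against 56.3% of all genes there. At promoters divergent in neither species the shares were 55.2% (52.7 to 57.7) and 26.9%. Relative to all genes of its kind, the overlap was thus larger at promoters divergent in neither species. Divergent promoters made up 25% of the mouse promoters of genes in both, 16.1% of mouse-only, 16.0% of human-only and 5.76% of the other genes. A shared peak counts for each of its genes, so these genes are not independent observations. With each peak given only to its nearest gene, the overlap was 52.4%.

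The promoters of R-loop genes were rich in CpG in both species, also in the species whose list used here held no peak. A promoter is called CpG-rich here when the 500 bp on each side of its principal TSS held over 50% G and C and a ratio of observed to expected CpG over 0.6. In mouse this was so for 85.5% of the genes in both (83.4 to 87.3), 72.4% of mouse-only genes, 74.9% of human-only genes and 46.7% of the genes with neither. In human the shares were 89.3%, 81.0%, 84.7% and 59.6%. Mouse-only genes were thus CpG-rich in human more often than genes with neither, although they had no peak in the HEK293 S9.6 list. Of them, 21.5% had a peak in the human S9.6 list labelled RNH1.

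**Figure D2:**
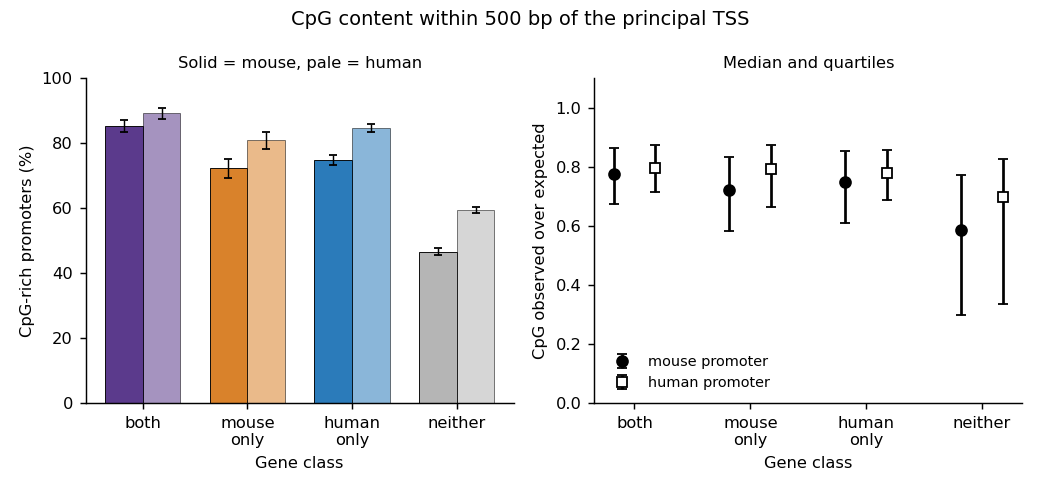
Left, share of CpG-rich promoters (%) by gene class, with 95% Wilson intervals, mouse in solid and human in pale bars. Right, the ratio of observed to expected CpG (median and quartiles), mouse as filled circles and human as open squares. Genes with a peak in both species stood highest in both panels, with 85.5% CpG-rich promoters in mouse and 89.3% in human, and genes with neither lowest, with 46.7% and 59.6%.

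The overlap stood above the background at CpG-rich promoters and at the others. Among the 8410 genes CpG-rich in both species, 63.1% of the mouse R-loop promoter genes (60.7 to 65.4) had a human peak, against 41.4% of all those genes, a ratio of 1.52. Among the other 7328 genes the shares were 47.4% (43.3 to 51.6) and 18%, a ratio of 2.63. The identity of the aligned promoter sequences did not separate the classes, with medians of 59.2% for genes in both, 59.1% for mouse only, 58.4% for human only and 59.2% for neither. In the same order the lower quartiles were 33.6%, 35.3%, 36.6% and 35.6%. The mouse and human windows thus aligned poorly at many genes, and the medians say little about conservation.

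R-loops are favoured where the RNA is rich in G, which is measured as GC skew, (G − C)/(G + C), on the coding strand. In the 500 bp after the TSS the skew was positive at 74.8% of the mouse promoters of genes in both (72.3 to 77.1), 72.3% of mouse-only, 72.2% of human-only and 66.4% of the others. The human values were 72.0%, 69.4%, 71.0% and 64.4%. In mouse the intervals of the 3 R-loop classes overlapped, and all 3 classes stood above the genes with neither in both species.

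The closeness of the summits to the TSS is largely set by the rule, which counts only peaks with a midpoint within 1 kb. It is also set by the use of the nearest of several start sites, a median of 3 in mouse and 5 in human for genes in both. In genes with a peak in both species the median summit was 54 bp upstream in WT (−54) and 104 bp upstream in HEK293 S9.6 (−104). Summits lay downstream of the nearest TSS at 40.0% of these genes in WT (37.4 to 42.8) and 33.2% in HEK293 S9.6 (30.6 to 35.8), against 46.0% of mouse-only and 42.3% of human-only genes. The lean to the upstream side depends on the choice of TSS. With 1 TSS per gene, its 5′ end, 50.1% of the WT and 48.7% of the HEK293 summits of genes in both lay downstream.

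**Figure D3:**
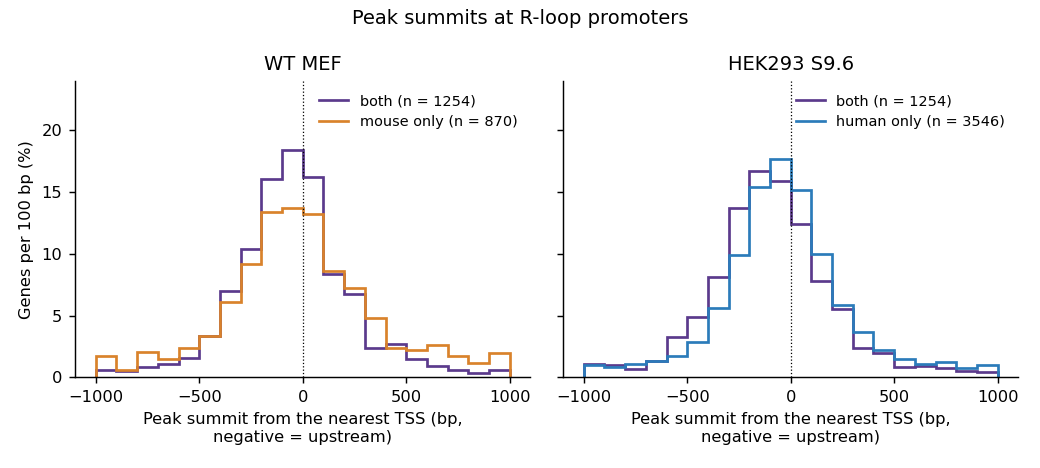
Distance of the peak summit from the nearest protein-coding TSS (bp, negative values upstream) as the share of genes per 100 bp (%), for WT MEF on the left and HEK293 S9.6 on the right. Lines show genes in both species and genes of that species only. All 4 distributions peaked within 200 bp of the TSS, with medians of −54 and −104 for genes in both.

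The side of the summit was weakly shared between the species. Of the 502 genes with a downstream summit in mouse, 39.2% had one in human, against 29.1% of the 752 with an upstream summit, a difference of 10.1 percentage points (4.77 to 15.5). The positions differed by a median of 216 bp between the species, and 28.2% of the genes had their summits within 100 bp of the same place relative to the TSS. The Spearman correlation of the positions was 0.108 over 1254 genes, which share the annotated start sites used to measure them.

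The classes also differed in the S9.6 lists that did not enter the choice of genes. In KO, where 19.2% of all genes had a promoter peak, 69.1% of the genes in both had one (66.5 to 71.6), 48.5% of mouse-only, 24.1% of human-only and 8.67% of the genes with neither. The difference between genes in both and mouse-only genes was 20.6 percentage points (16.4 to 24.8), and 14.1 when a p of 1e-05 or lower was asked of both lists. In shControl, with a background of 16.9%, the 4 shares were 60.9%, 41.6%, 19.3% and 8.46%, and in shDdx5, with 28.0%, they were 81.9%, 61.4%, 37.0% and 15.2%. Human-only genes thus had mouse peaks more often than genes with neither in every further MEF S9.6 list.

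The human lists mirrored this. In the S9.6 library labelled RNH1, where 24.6% of all genes had a promoter peak, the shares were 73.1% of the genes in both, 52.7% of human-only, 21.5% of mouse-only and 8.98% of the others. A peak of FLAG-MCM8, which marks the tagged helicase and not the hybrid, lay at 10.9% of all genes, 32.8% of genes in both (13.5 percentage points above human-only genes, 10.6 to 16.4), 19.3% of human-only, 10.1% of mouse-only and 5.32% of the others. The library labelled RNH1 kept a promoter peak at most genes in both, although the plasmid is meant to remove hybrids. A peak call does not measure the amount of signal, and the signal of this library was not analysed here.

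The control lists held few promoters, and held those of R-loop genes more often than the others. In the no-antibody list 1.09% of all genes had a promoter peak, and in the IgG list 3.92%. For no antibody the shares were 3.43% of genes in both, 2.64% of mouse-only, 0.931% of human-only and 0.715% of the rest, and for IgG 6.14%, 3.79%, 6.6% and 2.71%. Of the 1254 genes in both, 116 (9.25%, 7.77 to 11.0) had a peak in at least 1 control list, against 4.91% (4.58 to 5.26) of all genes, and 4 in both: MRPL18, OPA3, STAT6 and TCP1. MRPL18, of the mitochondrial ribosome, and TCP1, of the CCT chaperonin, share a promoter, with a fold of 4.2 in WT, 3.87 without antibody, 6.76 in HEK293 S9.6 and 4.43 in IgG.

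**Figure D4:**
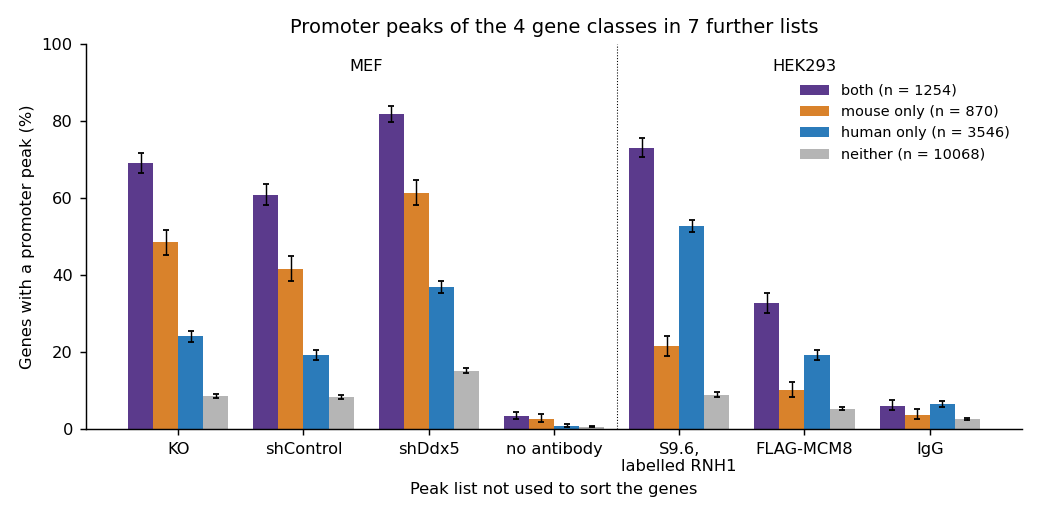
Share of genes with a promoter peak (%, vertical axis) in the 7 lists that did not enter the choice of genes (horizontal axis), by class, with 95% Wilson intervals and 1 library per list. Genes in both species stood highest in each S9.6 list and in FLAG-MCM8, for example 69.1% in KO and 32.8% in FLAG-MCM8, while all classes stayed under 7% in the no-antibody and IgG lists.

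A mouse gene that recurred across the MEF lists more often had a human peak. With a WT peak and none in KO, shControl or shDdx5, 29.2% of 319 genes had a HEK293 S9.6 peak (24.4 to 34.4), near the background of 30.5%. With 1, 2 or all 3 of these lists the shares were 54.1%, 62.9% and 70.9%. Genes without a WT peak went from 18.4% with no other MEF S9.6 list to 62.8% of 417 genes with all 3. Recurrence across MEF lists was thus followed by a larger share with a human peak whether or not WT itself held one.

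In 464 genes a promoter peak stood in every S9.6 list of both species. Of these, 42.0% (37.6 to 46.6) also had a FLAG-MCM8 peak, against 10.9% of all genes. The 464 genes were ordered by the sum of their ranks over all 6 S9.6 lists, each rank divided by the number of peaks in its list. This differs from the order over WT and HEK293 S9.6 that AP2A1 led. The first were, besides HDGFL2, KDM4A and GSK3B, CDCA2 with KCTD9, PKNOX1, FAM72A with SRGAP2, the splicing factor gene SF1 and CCDC9. Also among the first were the kinase gene MAP3K3, the arginine methyltransferase gene CARM1, and CDCA3 with the deubiquitinase gene USP5. SP1, which encodes a factor that binds GC-rich promoters, was another. Human FAM72A and SRGAP2 have near-identical copies, so their reads may have been placed uncertainly. SP1 had folds of 4.77 in WT, 5.15 in KO, 4.89 in shControl, 6.01 in shDdx5, 7.24 in HEK293 S9.6, 4.91 in the list labelled RNH1 and 6.43 in FLAG-MCM8. Of the 464, 62 (13.4%, 10.6 to 16.8) had a peak in a control list, against 4.91% of all genes, among them CARM1 and the CDCA3 and USP5 pair, without antibody.

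In 170 genes a peak stood in every MEF S9.6 list and in no human S9.6 list. Of these, 7.06% (4.08 to 11.9) had a FLAG-MCM8 peak. Among the 784 genes with a peak in both human S9.6 lists and no MEF S9.6 list the share was 25.6% (22.7 to 28.8). It was 10.9% of all genes and 3.89% of the genes in no S9.6 list. FLAG-MCM8 is a HEK293 list and HEK293 S9.6 calls helped to choose both sets, so this order is a description and not a test. The mouse set was not poor in CpG in human, where 87.6% of its promoters were CpG-rich (81.9 to 91.8), close to the 91.2% (88.2 to 93.4) of the 464 genes shared by all lists. The human set was CpG-rich in 82.1% of its human and 68.9% of its mouse promoters.

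Among the genes of the mouse set, Aph1b, a subunit of γ-secretase, had the strongest WT peak of any mouse-only gene, with a fold of 7.61 at chr9:66795302-66796046. It had 8.88 in KO, 5.82 in shControl, 10.5 in shDdx5 and 3.83 in the no-antibody list. Dazap1, an RNA-binding protein gene, had 5.39, 5.38, 5.21 and 6.38 in the 4 MEF S9.6 lists and no peak without antibody. Camsap1, which protects microtubule minus ends, had 5.94, 6.37, 7.58 and 7.78, and in human only a FLAG-MCM8 peak, of 4.43.

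The mouse set is 1.08% of all matched genes and the human set 4.98%. Of the 53 DNA replication genes 3 were in the mouse set and 6 in the human set, and of the 44 genes of homologous recombination and the Fanconi pathway 1 and 8. Gins2, part of the CMG replicative helicase, had folds of 5.13, 5.75, 6.73 and 7.20 in WT, KO, shControl and shDdx5. Cdt1 and Mcm4, which license replication origins, and Slx4, a scaffold of repair nucleases, were the other members of these groups in the mouse set.

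Of the human-only genes FOXK2, a forkhead factor, had the strongest peak, number 10 of the HEK293 list, with a fold of 13.8 at chr17:82586275-82586532. It had 16.7 in the library labelled RNH1 and 13.4 in FLAG-MCM8, and lay at an internal start site and not at the principal TSS. TMEM52, a membrane protein gene, had 7.76, 4.30 and 5.18 in these 3 lists. NPM1, which encodes the abundant nucleolar protein nucleophosmin, had 8.28 in HEK293 S9.6, 8.30 where the RNH1 plasmid was named, and no peak in any MEF list.

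DEAF1 and EPS8L2 were called from the same HEK293 peak, with a fold of 7.67. DEAF1, a transcription factor gene, also had a peak of 3.10 in KO. CPNE7 had 8.52 in HEK293 S9.6 and 7.92 in IgG, so its peak was almost as strong with the control antibody. The human-only class thus holds genes at which a MEF library other than WT had a peak and genes at which the IgG control did.

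Of 11 genes that the study targets or shows, 8 were human only, 2 in both and 1 in neither. Several of them were shown for their signal in these libraries, so these counts are a description of that choice. DDX5, the RNA helicase that unwinds R-loops, had a fold of 6.82 in HEK293 S9.6, 6.38 in the list labelled RNH1, 6.16 in FLAG-MCM8, no WT peak, and folds of 3.94, 4.02 and 3.69 in KO, shControl and shDdx5. Its IgG peak, with a fold of 2.73 and a −log10 q of 92.1, was number 6 of the IgG list and lay at another start site (chr17:64502966-64503570) than the S9.6 peak (chr17:64506262-64506809). DHX9, another R-loop helicase gene, had 5.58 in HEK293 S9.6 and 4.05 in shControl. MCM8 had no promoter peak in WT or in any human list, and 3.31 in KO and 4.31 in shDdx5. The deletion and the knockdown were not checked by these values, which are peaks of hybrid signal and not levels of RNA.

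USP37, a deubiquitinase gene, and CHCHD7 were in both species. USP37 had 4.58 in WT, 5.46 in KO, 5.31 in shControl, 5.78 in shDdx5, 7.78 in HEK293 S9.6, 6.34 in the list labelled RNH1 and 6.40 in FLAG-MCM8. CHCHD7 had 4.17 in WT and 6.10 in HEK293 S9.6. CDK4, GMNN, ARMC10, FBXO4, RNASEH1, which encodes RNase H1, and RNH1, which encodes a ribonuclease inhibitor, had a HEK293 S9.6 peak and no WT peak, and ARMC10 had the highest MEF folds of these, 7.35 in KO and 7.82 in shDdx5.

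Sorted by function, the share of genes in both differed widely between groups. Over all matched genes 7.97% were in both, 22.5% in human only and 870 of 15738 in mouse only. The gene groups were compared with these shares as a description. Among genes CpG-rich in both species, 994 of 8410 were in both. CpG-rich promoters made up 88.2% of the splicing and 77.3% of the homologous recombination group in mouse, against 57.6% of all genes. In human they made up 98.5% and 93.2%, against 68.8%. The part of CpG content in the group shares was not tested. Of 68 genes for splicing factors and hnRNPs, which coat and process nascent RNA, 17 (25%) were in both, 4 in mouse only and 25 (36.8%) in human only. With a p of 1e-05 or lower in both lists 11 of the 17 stayed in both. HNRNPA2B1 had folds of 4.95 in WT and 7.75 in HEK293 S9.6, HNRNPL 4.52 and 5.91, and SRSF7, SRSF9, U2AF2, HNRNPK and HNRNPF were also in both. HNRNPD was human only, with 10.4 in HEK293 S9.6, but had peaks of 3.87, 4.15 and 5.58 in KO, shControl and shDdx5.

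**Figure D5:**
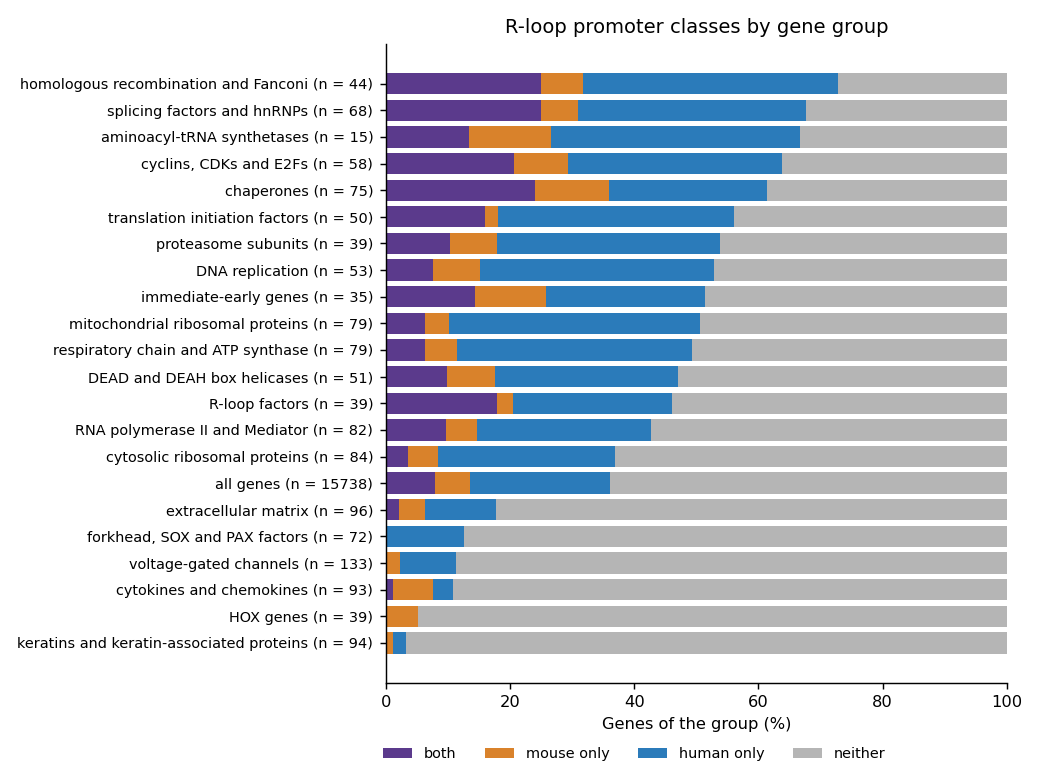
Share of the genes of each group (%, horizontal axis) in both species, mouse only, human only and neither, with the number of matched genes in brackets and all genes as a reference. Homologous recombination and splicing genes had 25% in both, against 7.97% over all genes (11 of the 17 splicing genes stayed in both with a p of 1e-05 or lower in both lists), and no HOX, forkhead, SOX, PAX, keratin or channel gene was in both.

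DNA repair gave a like share. Of 44 genes of homologous recombination and the Fanconi pathway, which repair breaks and crosslinks, 11 (25%) were in both and 3 in mouse only. Another 18 (40.9%) were in human only, against 22.5% of all genes. ATM, the kinase that signals breaks, had 4.39 in WT and 7.64 in HEK293 S9.6, and RMI1, of the complex that dissolves crossed DNA strands, 6.0 and 6.80. BLM, CHEK1, CHEK2, FANCA, FANCC, FANCE, GEN1, MUS81 and RAD52 were the other genes in both. BARD1, ATR and BRCA2 had a peak in both human S9.6 lists and in no MEF S9.6 list.

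Of 53 DNA replication genes 4 (7.55%) were in both, near the 7.97% over all genes: ORC2, ORC6, PCNA and MCM7. Another 20 (37.7%) were in human only, against 22.5% of all genes. WT peaks stood at 15.1% of the 53 genes, against 13.5% of all genes. The further MEF S9.6 lists gave 35.8% (KO), 32.1% (shControl) and 43.4% (shDdx5), against 19.2%, 16.9% and 28.0% of all genes. The share in both thus depends on the choice of WT. ORC6, of the origin recognition complex, had 5.89 in WT and 8.89 in HEK293 S9.6, and PCNA, the sliding clamp, 3.84 and 9.38. Of 58 genes for cyclins, their kinases and E2F factors 12 were in both, including CDK1, CCNA2, CCNE2 and CDC25C, and E2F1 was mouse only. The share of these cell cycle genes in both was 20.7%.

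The chaperones had 18 of 75 genes (24%) in both and 9 in mouse only. WT peaks stood at 27 of the 75 genes, against 13.5% of all genes. In shDdx5 the count was also 27, against 28.0% of all genes. KO peaks stood at 26.7% of the chaperones, against 19.2%, and shControl peaks at 25.3%, against 16.9%. Chaperones thus lay above all genes in every MEF S9.6 list, but furthest above in WT. The share in both was counted with WT and may depend on that choice. CCT3, of the chaperonin that folds actin and tubulin, had 3.94 and 9.13, and HSPA8, the constitutive heat shock cognate, 3.90 and 8.42. HSPD1 and HSPE1, the mitochondrial chaperonin genes that lie head to head, were both in the shared class. Translation initiation factors had 8 of 50 (16.0%) in both, with EIF5A at 4.76 and 5.33, and EIF2AK4 was mouse only with 7.31. Only 10 of the 18 chaperones and 5 of the 8 initiation factors stayed in both with a p of 1e-05 or lower in both lists.

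Ribosomal and mitochondrial genes had low shares in WT that did not recur in every MEF list. The share in both was 3.57% of cytosolic ribosomal, 6.33% of mitochondrial ribosomal and 6.33% of respiratory chain genes, against 7.97% over all genes. The shares of 6.33% lay near that background. Of 84 cytosolic ribosomal protein genes, 24 were in human only and 3 in both, and RPS27A, one of the latter, had 5.15 in WT and 3.96 in HEK293 S9.6. Of 79 mitochondrial ribosomal protein genes 32 were in human only and 5 in both, and of 79 respiratory chain genes 30 and 5. Over all genes 22.5% were human only, against 28.6%, 40.5% and 38.0% of these groups in that order. WT peaks stood at 8.33%, 10.1% and 11.4% of them, under its background of 13.5%. KO peaks stood at 21.4%, 22.8% and 21.5%, against a background of 19.2%. In shControl the shares were 13.1%, 20.3% and 16.5% (background 16.9%), and in shDdx5 23.8%, 31.6% and 35.4% (background 28.0%). The cytosolic group thus stayed under the background in shControl and shDdx5. NDUFA11, of complex I, was in both, with 3.82 and 8.78. CpG-rich promoters made up 84.5% of the cytosolic ribosomal protein promoters in mouse and 86.9% in human.

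R-loop factors, the genes whose products limit or resolve hybrids, had 7 of 39 (17.9%) in both. Among these were BLM, THOC1, of the THO export complex, TDRD3, PRMT1, SIN3A and SMARCA4. SIN3A, a repressor scaffold, had 3.81 in WT and 4.23 in HEK293 S9.6, and TDRD3, a partner of a topoisomerase, 4.64 and 7.52. TOP1, AQR and BRCA2 had peaks in both human S9.6 lists and in no MEF S9.6 list. Of 51 DEAD and DEAH box helicase genes 5 (9.80%) were in both, near the 7.97% over all genes: DDX20, DDX42, DDX59, DHX15 and DHX30. Ddx54 was mouse only with a fold of 5.93 that it shared with its divergent neighbour Rita1.

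Among immediate-early genes, which respond to growth factors within minutes, 5 of 35 (14.3%) were in both: EGR1, FOSL2, JUN, JUND and NR4A2. JUN had folds of 3.91 in WT, 4.46 in KO, 4.73 in shControl, 4.36 in shDdx5 and 5.24 in HEK293 S9.6. MYC was in mouse only and SRF in human only. Of 82 genes of RNA polymerase II, its general factors and Mediator, 8 were in both, 4 in mouse only and 23 in human only, near the shares over all genes. Proteasome genes had 4 of 39 (10.3%) in both and the aminoacyl-tRNA synthetases 2 of 15 (13.3%), against 7.97% over all genes. These counts are too small to set apart from that share.

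Developmental and tissue genes were nearly absent from the shared class. None of 39 HOX genes and none of 72 forkhead, SOX and PAX genes was in both. Of their promoters 61.5% and 69.4% in mouse and 76.9% and 80.6% in human were CpG-rich. Of the forkhead, SOX and PAX genes 9 (12.5%) were human only, under the 22.5% of all genes. None of 94 keratin genes and none of 133 channel genes was in both. Of their promoters 0% and 43.6% in mouse and 4.26% and 57.1% in human were CpG-rich. Of 93 cytokine, chemokine and receptor genes IFNGR1, the interferon-γ receptor, was the one in both, with 6.87 in WT and 4.47 in HEK293 S9.6. CpG-rich promoters made up 10.8% of this group in mouse and 16.1% in human. The part of CpG content in these counts was not tested.

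The extracellular matrix genes, which fibroblasts express strongly, had 2 of 96 (2.08%) in both, FN1 and COL14A1, and 4 in mouse only. WT peaks stood at 6.25% of them, under the 13.5% of all genes. HEK293 S9.6 peaks stood at 13.5% of them, under the 30.5% of all genes. FN1, fibronectin, had 4.69 in WT, 4.69 in KO, 4.11 in shDdx5 and 3.97 in HEK293 S9.6. Of 24 fibroblast markers 5 (20.8%) had a WT peak (FN1, CAV1, SNAI2, TWIST2 and VIM), and 5 (20.8%) a HEK293 peak. The first share lay above and the second under that of all genes. Of 14 kidney markers 1 had a WT peak and 2 a HEK293 peak, and of 14 epithelial markers 1 and 3. None of the 14 neuron, 12 blood, 10 endothelium, 10 muscle or 12 pluripotent and germ cell markers had a WT peak, and a HEK293 peak stood at 1, 2, 0, 0 and 1 of them. The marker lists are too short and too seldom called to check the cell types from these peaks.

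X-linked genes were seldom mouse R-loop promoters. Of 565 genes on the X in both species, 14 (2.48%, 1.48 to 4.12) had a WT peak, against 13.9% (13.4 to 14.5) of the autosomal genes. The further MEF S9.6 lists gave 5.49% against 19.7% (KO), 6.37% against 17.3% (shControl) and 13.1% against 28.6% (shDdx5). In HEK293 S9.6 they were 21.1% against 30.9%. Among genes CpG-rich in both species the WT values were 5.56% of 180 X-linked and 19.0% of 8228 autosomal genes. The labels do not give the sex of the MEF, and the part of X copy number in this was not tested.

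The window and the thresholds set the edges of the classes. In WT the midpoint at Fam193b lay 1002 bp from the TSS and was not counted. In HEK293 S9.6 the midpoint at ST3GAL1, at 1000 bp, was counted and that at ADGRG1, at 1001 bp, was not. The weakest counted peaks were at Hddc3 in WT, with a −log10 p of 3.02, and at LYPLA1 in HEK293 S9.6, with 5.02.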

How the data were processed

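The authors tagged S9.6, FLAG or control sites by CUT&Tag in MEF and HEK293 cells, sequenced the libraries and called peaks with MACS2; the submitters' processing notes name MACS2 2.1.2, Bowtie2 and Trimmomatic. The deposited narrowPeak files give, per peak, a score, a fold enrichment (ratio), a −log10 p, a −log10 q and a summit, on mm10 or hg38. The study's methods name a fold and a p limit for significant HEK293 peaks, looser in p than the weakest deposited HEK293 peak. The cutoff given to MACS2 and the input used for HEK293 are not given in the sources used here. No read counts are given, so depth is unknown.

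From these, a gene was counted when a peak midpoint lay within 1 kb of a protein-coding TSS (GENCODE M21 or v44), on nuclear chromosomes. Peaks were ranked by −log10 q within their list. Promoter sequence came from the RefSeq assemblies, around the APPRIS principal TSS. Promoters were aligned over 500 bp with Biopython 1.88. Shares have 95% Wilson and differences Newcombe intervals; with 1 library per group no test was made. Python 3.11.15, numpy 2.4.6 and pandas 2.3.3 were used, and the counting step was tested on simulated peaks.

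The classes, the gene groups and the markers were chosen with earlier results of these data known. Genes were named by rule: the 12 genes in both with the lowest sum of ranks, the 6 strongest of each single-species class, the strongest 2 shared and 1 of each single-species class per gene group, the genes the study shows or targets, the genes at the window's edge and those in both control lists. The genes with a peak in every S9.6 list of a species, and other group members named, were chosen after their values were seen. A few genes that these rules name are not reported here. The histone and olfactory receptor groups had 1 and 0 matched symbols and are not described. Alternatives changed thresholds, window, TSS, symbol matching and libraries.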

Additional observations from a re-analysis of the deposited data

How the results depend on the processing

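Of 137 alternative values, 78 stayed within their interval or, for gene groups, within 1.5 times the count, and 59 moved. No difference in percentage points changed sign, while shares, ratios and counts cannot be negative. The ratio to all genes stayed between 1.52 and 2.51 over 18 alternatives. The share of mouse genes with a human peak was 64.9% at a p of 1e-05, 67.2% at a q of 0.05, 61.1% at a fold of 4, 32.8% with equal numbers of genes, 56.9% within 500 bp, 52.2% with 1 TSS per gene, 52.4% with the nearest gene only, 54.4% with shControl and 53.1% with shDdx5 in place of WT, 52.0% with the list labelled RNH1 and, in an alternative chosen after seeing the data, 63.1% at promoters CpG-rich in both species. In the same order the share of human genes with a mouse peak was 19.5%, 17.2%, 13.9%, 32.8%, 24.8%, 24.2%, 23.1%, 30.2%, 48.7%, 28.5% and 28.6%, and 35.9% with KO. The ratio was 2.13, 2.2, 2.51 and 2.43 under the first 4, 2.05 within 500 bp, 1.68 within 3 kb, 2.06 with 1 TSS, 1.78 with shControl, 1.74 with shDdx5, 2.11 with the list labelled RNH1 and 1.52 at CpG-rich promoters.

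The KO difference was 14.1 percentage points at a p of 1e-05, 14.3 at a q of 0.05 and 15.6 at CpG-rich promoters. The difference in CpG-rich promoters between genes in both and neither, 38.8 points in mouse and 29.7 in human, was 35.5 and 26.9 with equal numbers, 41.1 and 32.4 with 1 TSS, 42.2 and 34.5 with shDdx5, 36.5 and 27.6 with the list labelled RNH1 and 35.4 and 34.0 over 1 kb on each side. In mouse it was 36.3 within 3 kb and 36.4 with the nearest gene, and in human 32.0 with KO and 27.3 over 250 bp. Downstream summits were 50.1% in WT and 48.7% in HEK293 with 1 TSS, which ends the upstream lean of the summits. The excess of genes in both over human-only genes in the strongest 25% of the HEK293 list, 15.6 points, was 11.1 when ranked by fold. At a p of 1e-05, 3 mitochondrial ribosomal, 3 respiratory chain, 11 splicing, 5 initiation factor and 10 chaperone genes stayed in both. The cause was not tested.

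Each group is 1 library, so none was left out. No paired analysis was possible because the labels give no replicate numbers and no result comes from a test. The read depth is unknown, so a missing peak and a peak under the threshold, which differs between the species, cannot be told apart.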
